A study of Mus musculus with 17 samples.

Results

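Mice fed a high-fat diet and then restricted in food were compared with mice kept on a low-fat diet throughout, to describe what still differed in their periprostatic fat after the restriction. The comparison holds 11 of the 17 arrays of the study: 5 titled HFD+CR (here HFD_CR) and 6 titled LFD ad lib (here LFD), chosen by their labels alone. All mice were male C57BL/6J, entered their diets at 6 weeks of age and were killed at 25 weeks. LFD mice ate a diet with 10 kcal% fat ad libitum. HFD_CR mice ate a diet with 60 kcal% fat ad libitum for 12 weeks and then, for 7 weeks, received each day 70% of what ad libitum high-fat mice ate, a restriction of 30%. This follows the titles and the treatment protocol. Another field of the labels, on housing, says of all animals that they had free access to their diets. The 6 ad libitum high-fat mice (HFD) were set beside both groups as a reference level. No low-fat group was restricted, so the kind of fat diet and the amount eaten cannot be told apart between HFD_CR and LFD. The labels used here do not give the hour of feeding or of harvest.

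White fat stores triglyceride and also makes fatty acids from glucose by de novo lipogenesis, a pathway switched on by insulin and carbohydrate and led by the enzymes ATP citrate lyase, acetyl-CoA carboxylase and fatty acid synthase. In obesity, macrophages gather around dying adipocytes and take up their lipid. These lipid-associated macrophages carry the receptor Trem2 and lysosomal and matrix-degrading enzymes. Fat also holds a circadian clock, in which the activators Bmal1 (gene Arntl), Clock and Npas2 drive Per, Dbp and Rev-erb genes, and Rev-erb proteins repress Arntl in turn. Cholesterol synthesis is run by enzymes under the transcription factor Srebp2.

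RNA was measured on Affymetrix Mouse Gene 2.0 ST arrays, whose deposited values are log2 signals. The array medians lay between 7.03 and 7.15, single values between 4.55 and 14.41, and no pair of arrays held the same values. The mean over 17 adipocyte identity genes was 12.83 to 13.00 on the HFD_CR arrays and 12.73 to 12.94 on the LFD arrays, against the array medians near 7, so the tissue label matched its markers. Some arrays also carried signals of other tissues, given as the mean over a marker list minus that of the median array. The 21 skeletal muscle genes stood 2.80 above the median array on LFD mouse 2, 1.70 on LFD mouse 3 and 1.72 on HFD_CR mouse 2. The 19 prostate and accessory gland genes stood 2.08 above it on LFD mouse 3, and 13 male germ cell genes 1.88 on HFD_CR mouse 1. The 13 thermogenic adipocyte genes, of which Ucp1 is the heat-producing uncoupling protein, stood 1.56 and 1.21 above it on LFD mice 3 and 6 and between -0.40 and 0.02 on the HFD_CR arrays. No skeletal muscle, gland or germ cell list member differed between HFD_CR and LFD by the test below.

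**Figure D1:**
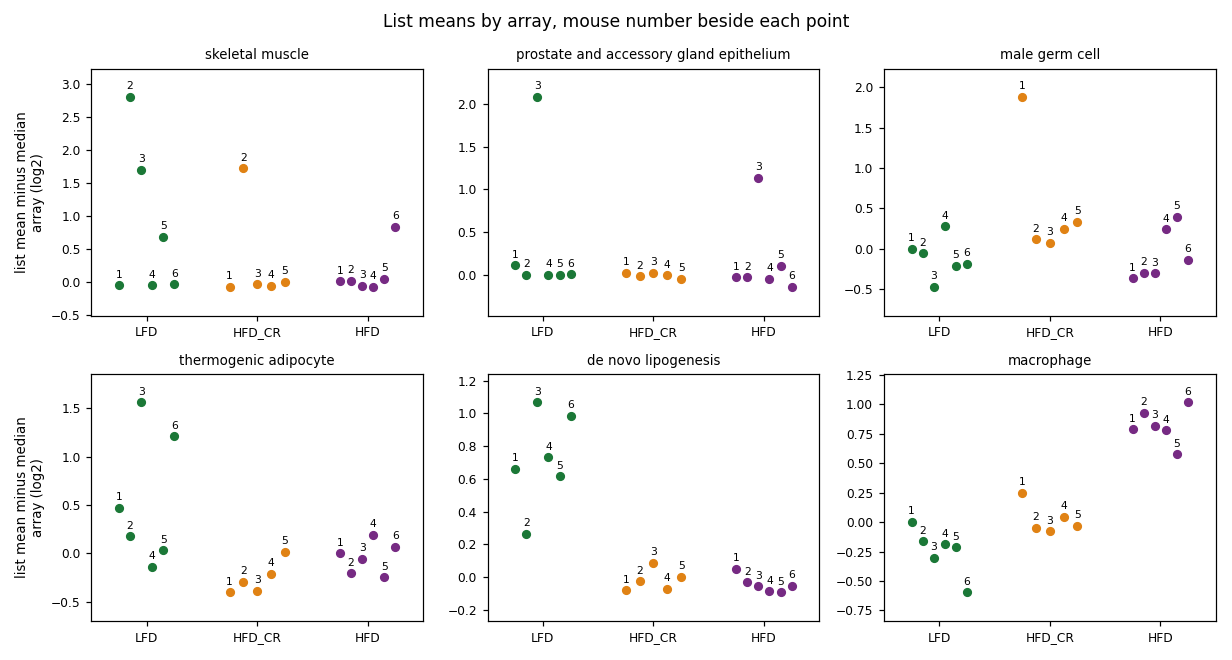
Mean over 6 gene lists on each of the 17 arrays, as log2 difference from the median array (vertical axis), for LFD, HFD_CR and HFD (horizontal axis); each point is 1 mouse with its number. Muscle, gland, germ cell and thermogenic genes are high on single arrays (2.80 for muscle on LFD mouse 2), while all 6 LFD arrays lie above all 5 HFD_CR arrays for de novo lipogenesis.

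Of 22180 genes tested with limma, 2015 (9.08%) differed between HFD_CR and LFD at an adjusted p under 0.05, 1287 higher in HFD_CR (5.8% of all genes) and 728 lower (3.28%). Every adjusted p in the text is from this limma fit with Benjamini-Hochberg adjustment over all 22180 genes, and every difference is in log2 units, with its standard error (SE) where one is printed. Most differences were small: the median size among called genes was 0.327, and 52 genes were at least 2-fold higher and 30 at least 2-fold lower. The 5 HFD_CR and 6 LFD values did not overlap for 1480 genes (6.67%). At an unadjusted p under 0.05 there were 4874 genes. In the same fit, 4213 genes (19%) differed between HFD_CR and HFD, and 6165 genes (27.8%) between HFD and LFD. These comparisons share arrays with the first, so their values are set side by side for single genes and no overlap between them was computed.

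**Figure D2:**
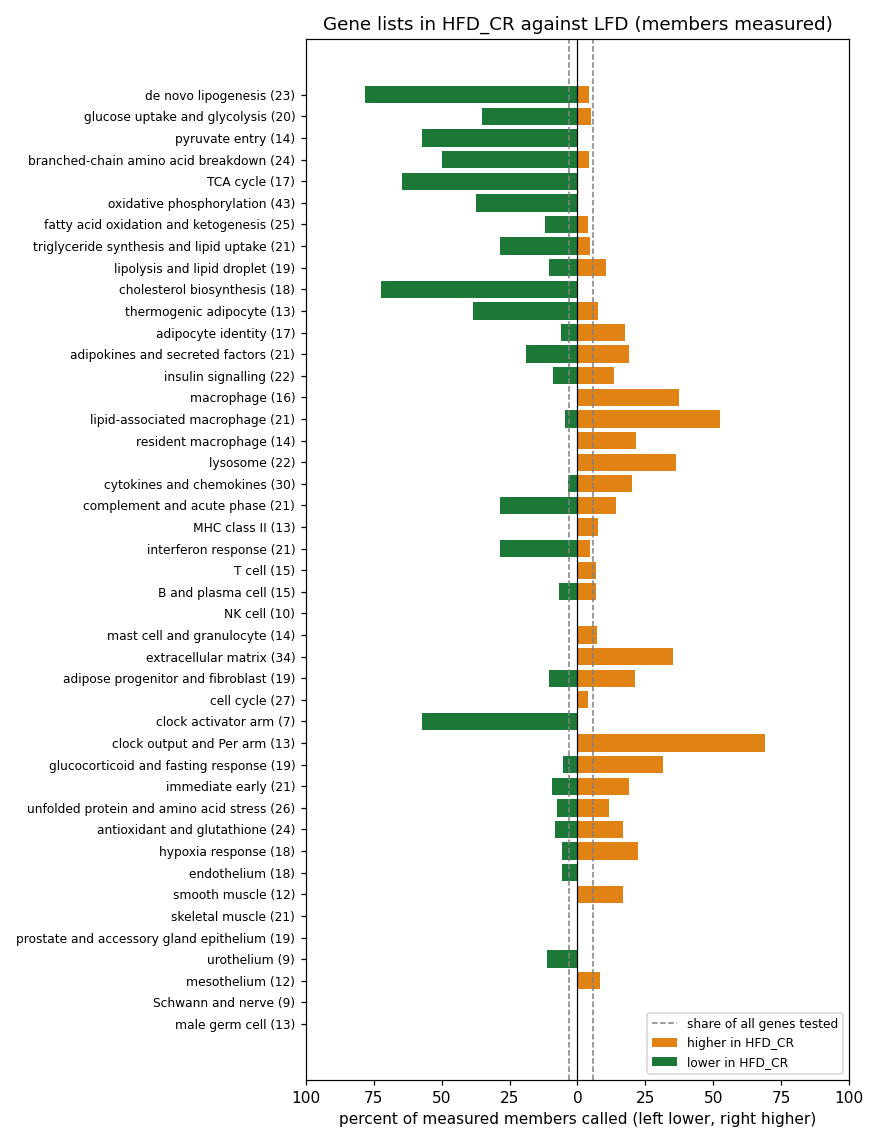
Percent of the measured members of each gene list (number measured in brackets) called lower (left, green) or higher (right, orange) in HFD_CR than in LFD at an adjusted p under 0.05; dashed lines give the shares of all genes tested, 3.28% lower and 5.8% higher. De novo lipogenesis, cholesterol biosynthesis, the TCA cycle and, level with each other, pyruvate entry and the clock activator arm reach furthest to the left, and the clock output and lipid-associated macrophage lists furthest to the right.

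De novo lipogenesis was the gene list with the largest share of changed members. Of 23 measured genes, 18 were lower in HFD_CR than in LFD and 1 was higher, the desaturase Fads3 (0.37). The median difference over the list was -0.60, beside 0.00 over all genes tested. For 14 of the 23 genes the groups did not overlap, beside 6.67% of all genes. The list mean stood between -0.08 and 0.09 relative to the median array in HFD_CR and between 0.27 and 1.07 in LFD. HFD arrays, at -0.09 to 0.05, largely overlapped the range of HFD_CR. Of the LFD arrays with muscle signal, mouse 2 was the lowest of its group at 0.27 and mouse 3 the highest at 1.07. The count of lower genes was again 18 without the 4 arrays highest in muscle or gland genes.

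Acly, the ATP citrate lyase that makes cytosolic acetyl-CoA from citrate, read 10.984, 11.003, 11.020, 10.881 and 10.870 on the HFD_CR arrays and 11.96 at the lowest, 12.69 at the median and 12.96 at the highest on the LFD arrays. Every HFD_CR array lay below every LFD array. The difference was -1.66 ± 0.13 (SE; adjusted p = 2.78e-06), a 3.16-fold lower signal. Acaca, the acetyl-CoA carboxylase of the first committed step, read 10.57, 10.81, 11.23, 10.78 and 10.93 in HFD_CR and from 11.61 through 12.43 to 12.64 in LFD. Its groups did not overlap either, with a difference of -1.44 ± 0.15 (adjusted p = 1.35e-05). Elovl6, which lengthens the palmitate made by fatty acid synthase, was the largest fall of the list. It read 10.07, 9.98, 10.82, 10.11 and 10.45 in HFD_CR and 11.03 to 12.86 in LFD (median 12.14), a difference of -1.74 ± 0.23 (adjusted p = 0.000126). The fatty acid synthase gene Fasn itself differed by -0.78 ± 0.08 (adjusted p = 1.27e-05), with 12.96 to 13.32 in HFD_CR and 13.52 to 14.03 in LFD. Acss2, which makes acetyl-CoA from acetate, was lower (-1.21 ± 0.15, adjusted p = 9.45e-05).

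For none of these 5 genes did HFD_CR differ from HFD at the threshold. The HFD_CR minus HFD differences were -0.32 for Acly (adjusted p = 0.0978), 0.38 for Acaca (0.0845 as the adjusted p), 0.52 for Elovl6 (adjusted p = 0.138), 0.07 for Fasn (adjusted p = 0.638) and -0.10 for Acss2 (adjusted p = 0.739). A p that misses the threshold does not show equal levels. The stearoyl-CoA desaturase Scd1 did not pass the test against LFD. Its HFD_CR values of 14.13 to 14.18 overlapped the LFD values of 14.15 to 14.22, near the top of the array's scale, for a difference of -0.04 ± 0.03 (adjusted p = 0.498). The transcription factors of the pathway were lower in HFD_CR, with differences of -0.47 for Srebf1 and -0.59 for Mlxipl, the carbohydrate-sensing factor ChREBP.

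**Figure D3:**
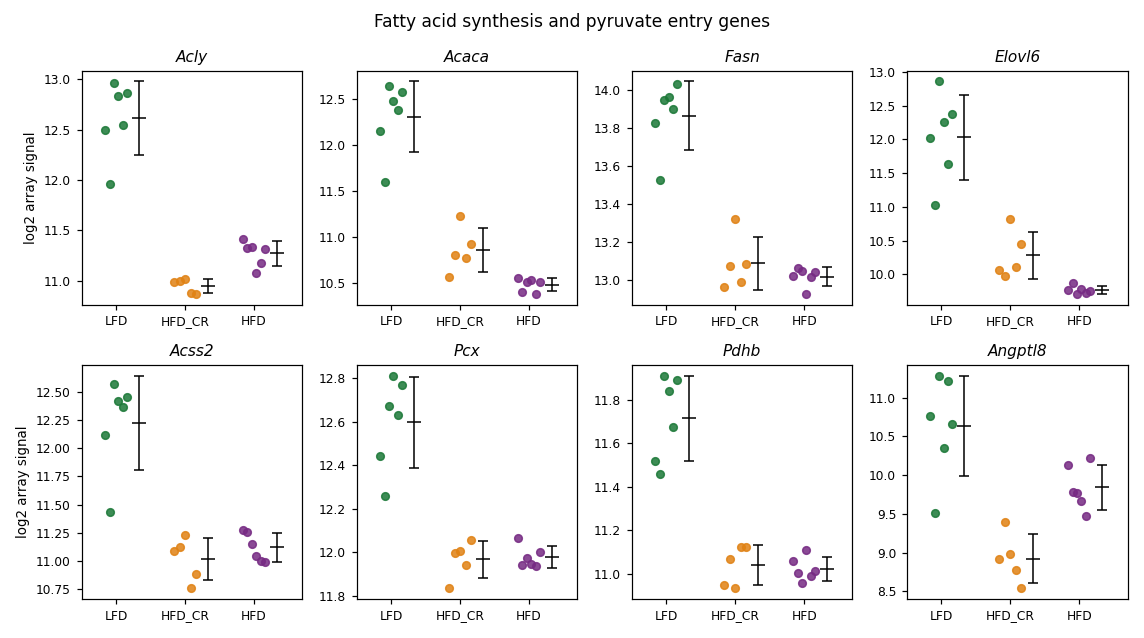
log2 array signal (vertical axis) of 8 genes of fatty acid synthesis, pyruvate entry and their control on each array of LFD, HFD_CR and HFD; points are mice, the line and bar beside them the mean and SD. HFD_CR and LFD points do not overlap in any panel, and for Acly, Acaca, Fasn, Elovl6, Acss2, Pcx and Pdhb the HFD_CR difference from HFD did not pass the test.

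The steps that feed carbon into this pathway were lower too. Of 14 pyruvate entry genes, 8 were lower and none was higher, with a list median of -0.31. Pdhb and Pdha1, subunits of the pyruvate dehydrogenase that turns pyruvate into acetyl-CoA, differed by -0.68 ± 0.08 (adjusted p = 3.16e-05) and -0.49 ± 0.08 (adjusted p = 0.00097). Pcx, the pyruvate carboxylase, read 11.83, 11.99, 12.00, 11.94 and 12.06 in HFD_CR and 12.26 to 12.81 (median 12.65) in LFD, a difference of -0.63 ± 0.08 (adjusted p = 9.23e-05). Neither Pdhb (0.02, adjusted p = 0.929) nor Pcx (-0.01, adjusted p = 0.957) differed detectably between HFD_CR and HFD. Leaving out HFD_CR mouse 5 or LFD mouse 6 gave 1 higher and 8 lower pyruvate genes. With the mean of the thermogenic list as a covariate (the thermogenic covariate) 3 were lower and 1 was higher, with a median of -0.19.

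Of 20 glucose uptake and glycolysis genes, 7 were lower and 1 was higher, Pfkfb3 (0.35), with a median of -0.21. The insulin-regulated glucose transporter Slc2a4 (GLUT4) read 10.58, 10.77, 10.82, 10.81 and 11.04 in HFD_CR and 11.02 to 11.43 in LFD (median 11.29). HFD_CR mouse 5 lay just above the lowest LFD array, so the groups overlapped, and the difference was -0.44 ± 0.10 (adjusted p = 0.00666). Slc2a4 was higher in HFD_CR than in HFD by 0.69 (adjusted p = 7.04e-05), so its HFD_CR level lay between those of the other groups. Without HFD_CR mouse 2, 3 or 5 the higher gene of this list was lost, leaving 5 to 6 lower. With the thermogenic covariate 1 gene was lower and none higher, with a median of -0.10.

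Mitochondrial genes differed by small amounts. Of 17 TCA cycle genes 11 were lower and none higher (median -0.20), of 43 oxidative phosphorylation genes 16 were lower and none higher (median -0.17), and of 24 branched-chain amino acid breakdown genes 12 were lower and 1 was higher (median -0.22). Citrate synthase, Cs, differed by -0.30 ± 0.06 (adjusted p = 0.00521). Ndufa10 of respiratory complex I differed by -0.38 ± 0.07 (adjusted p = 0.00279), and Mccc1, of leucine breakdown, by -0.37 ± 0.08 (adjusted p = 0.0069). Bcat1, the cytosolic branched-chain transaminase, was the higher gene, by 1.02 ± 0.12 (adjusted p = 5.02e-05), with 8.45 to 8.86 in HFD_CR and 7.08 to 7.93 in LFD. These counts moved with single arrays. Without HFD_CR mouse 1 the lower genes were 6 in the TCA cycle, 5 in oxidative phosphorylation and 6 in branched-chain breakdown. For oxidative phosphorylation they were 9, 7 and 7 without HFD_CR mouse 2, 3 or 4 and 5, 5 and 4 without LFD mouse 3, 4 or 6, and for branched-chain breakdown 7 without LFD mouse 4. Without LFD mice 3 and 6 the lower genes were 6, 3 and 4 in these lists in turn, and without the 4 arrays with muscle or gland signal 6, 7 and 5. With the mean of the thermogenic list as a covariate, no gene of the 3 lists was called lower, while 10 lipogenic genes were.

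Fewer genes of triglyceride synthesis and release were called. Of 21 triglyceride synthesis and lipid uptake genes, 6 were lower, among them Mogat1, a monoacylglycerol acyltransferase (-0.88 ± 0.10, adjusted p = 3.49e-05), and Gpam, the first acyltransferase of glycerolipid synthesis (-0.54 ± 0.10, adjusted p = 0.00185). The single higher gene was the glycerol channel Aqp7 (0.29 ± 0.07, adjusted p = 0.0175), and this count rose to 3 without HFD_CR mouse 1 and to 2 without LFD mouse 2. Without the 4 arrays with muscle or gland signal, Aqp7 missed the threshold (0.22, adjusted p = 0.0568). Under the thermogenic covariate 2 genes of the list were lower and none higher. Of 19 lipolysis and lipid droplet genes, 2 were higher and 2 lower, with a median of -0.06. The higher genes were 1 without HFD_CR mouse 1, 2, 3 or 5 or LFD mouse 1, 3, 4 or 5. With the thermogenic covariate none was higher and 1 was lower. G0s2, an inhibitor of the lipase ATGL, was among the lower genes (-0.57 ± 0.06, adjusted p = 1.63e-05). Its HFD_CR values, 8.96 to 9.27, lay below every LFD value, 9.67 to 9.81.

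Of 25 fatty acid oxidation and ketogenesis genes, Cpt1a alone was higher and 3 were lower, 5 without LFD mouse 1, 6 without LFD mouse 2 and none with the thermogenic covariate. Cpt1a, the carnitine palmitoyltransferase that admits fatty acids to mitochondria, read 11.58, 11.43, 11.47, 11.42 and 11.34 in HFD_CR and 10.77 to 11.04 in LFD (median 10.95). The groups were separate, with a difference of 0.51 ± 0.05 (adjusted p = 1.56e-05), and HFD was higher still (11.60 to 11.76).

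The thermogenic list differed through a few genes with a wide LFD spread. Ucp1 read 6.61, 6.62, 6.17, 7.36 and 8.26 in HFD_CR, and 10.27, 9.41, 12.65, 6.71, 8.21 and 12.07 on LFD arrays 1 to 6. LFD mouse 4 lay inside the HFD_CR range. The difference of -2.88 ± 0.84 had an adjusted p of 0.0371, and 16 of 24 alternatives ended the call; without LFD mice 3 and 6 it was -1.65 (adjusted p = 0.163). It was also lost when any of HFD_CR mice 1 to 4 or LFD mouse 1, 3 or 6 was left out singly, with differences of -2.97 to -2.33 and adjusted p between 0.0632 and 0.0923. Cidea, a lipid droplet protein abundant in brown fat, differed by -1.78 ± 0.41 (adjusted p = 0.0101), and by -1.08 without LFD mice 3 and 6 (adjusted p = 0.0159). In all, 5 of 13 thermogenic genes were lower and 1 was higher, Prdm16 (0.29). Prdm16 was not called when any of HFD_CR mice 2 to 5 or LFD mice 2 to 5 was left out. Without LFD mice 3 and 6 the list had 3 lower genes and none higher.

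Adipocyte identity genes were near the LFD level as a list, with a median of 0.00, 3 of 17 higher and 1 lower (2 lower without LFD mouse 3, and none called with the thermogenic covariate). HFD_CR exceeded HFD for 12 of the 17 by the test, beside 1705 genes higher and 2508 lower of all 22180 in that comparison. Adiponectin, Adipoq, read 11.72 to 11.81 in HFD_CR and 11.57 to 11.88 in LFD, a difference of 0.05 ± 0.06 (adjusted p = 0.727). Pparg, the master regulator of adipocytes, differed by -0.06 ± 0.06 (adjusted p = 0.633). Both were higher in HFD_CR than in HFD, by 0.32 (adjusted p = 0.00132) and 0.30 (adjusted p = 0.00203). Leptin, Lep, read 13.70, 13.58, 13.44, 13.59 and 13.58 in HFD_CR and 12.90 to 13.51 in LFD. These ranges overlapped, and the difference of 0.29 ± 0.08 (adjusted p = 0.0359) lost its call in 12 of 24 alternatives, among them leaving out HFD_CR mouse 1, 2, 4 or 5 or LFD mouse 4 or 6 (adjusted p of up to 0.0981). Its HFD_CR minus HFD difference was -0.14 (adjusted p = 0.282).

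Among secreted factors, Angptl8, an insulin-induced inhibitor of lipoprotein lipase in fed fat, stood apart from both other groups. It read 8.92, 9.39, 8.98, 8.77 and 8.54 in HFD_CR, 9.52 to 11.29 in LFD (median 10.72) and 9.48 to 10.23 in HFD. All HFD_CR values were the lowest of the study, and the differences were -1.71 ± 0.25 from LFD (adjusted p = 0.00029) and -0.92 from HFD (adjusted p = 0.0132). Agt, the angiotensin precursor, was lower than in LFD (-0.50 ± 0.10, adjusted p = 0.00242) and higher than in HFD by 0.90 (adjusted p = 8.92e-06).

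In insulin signalling, 3 of 22 genes were higher and 2 lower, 22.7% of the list beside 9.08% of all genes called. The adaptor Irs2, induced by fasting in several tissues, was higher by 0.53 ± 0.11 (adjusted p = 0.00472), with 10.58 to 10.79 in HFD_CR above every LFD array (9.59 to 10.35) and every HFD array (10.00 to 10.33). Pik3r1, the regulatory subunit of PI3-kinase, was lower (-0.54 ± 0.09, adjusted p = 0.000837). The lower genes were 1 without HFD_CR mouse 1, 4 or 5 or LFD mouse 4 or 6, and with the thermogenic covariate 1 gene was higher and none lower. Foxo3, a transcription factor held back by insulin, was higher by 0.33 ± 0.08 (adjusted p = 0.0155).

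Macrophage genes were partly above the LFD level. Of 21 lipid-associated macrophage genes, 11 were higher in HFD_CR and 1 was lower, Acp5 (-0.32), with a median of 0.32. The groups did not overlap for 10 of these genes, beside 6.67% of all genes. The HFD minus LFD median of the list was 0.86. Its list mean was -0.60 to 0.21 in HFD_CR, -0.97 to -0.71 in LFD and 0.56 to 0.86 in HFD, so HFD_CR lay between the groups and HFD_CR mouse 2 was the nearest to LFD. Without LFD mouse 2, a second gene of the list was lower. Because whole tissue was measured, more cells of a type and more RNA per cell cannot be told apart.

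Atp6v0d2, a macrophage and osteoclast subunit of the lysosomal proton pump, had the largest rise of the list. It read 11.04, 7.75, 9.42, 10.56 and 10.50 in HFD_CR and 6.03 to 7.29 in LFD (median 6.68), against 11.72 to 12.32 in HFD. The groups did not overlap, although HFD_CR mouse 2 stood close to the highest LFD mouse. The difference was 3.19 ± 0.42 (adjusted p = 0.000122). The LFD mean lay below every array median, and with such signals raised to the median the difference was 2.74. Mmp12, the macrophage elastase, read 10.93, 8.72, 10.23, 10.80 and 10.56 in HFD_CR and 7.02 to 8.40 in LFD (median 7.67), a difference of 2.62 ± 0.31 (adjusted p = 5.02e-05). Gpnmb, a lysosomal glycoprotein of lipid-loaded macrophages, read 12.55, 10.31, 11.63, 12.53 and 12.30 in HFD_CR and 9.46 to 10.08 in LFD (median 9.58). Its difference was 2.19 ± 0.29 (adjusted p = 0.000142).

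Trem2, the lipid-sensing receptor, read 10.68, 9.01, 9.91, 10.47 and 10.35 in HFD_CR and 8.32 to 8.80 in LFD (median 8.48), a difference of 1.59 ± 0.22 (adjusted p = 0.000154). Itgax (CD11c) read 9.69, 8.04, 8.60, 9.15 and 8.89 in HFD_CR and 7.16 to 7.94 in LFD, a difference of 1.40 ± 0.24 (adjusted p = 0.00124). For both genes mouse 2 was again the lowest HFD_CR array. All 5 genes were lower in HFD_CR than in HFD, with differences of -2.15 (adjusted p = 0.00127), -1.12 (adjusted p = 0.016), -1.48 (adjusted p = 0.00151), -1.48 (adjusted p = 0.0001) and -1.59 (adjusted p = 0.000144) for Atp6v0d2, Mmp12, Gpnmb, Trem2 and Itgax.

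Of 16 general macrophage markers, 6 were higher and none lower, with a median of 0.18. Cd68, a lysosomal protein of phagocytes, was higher by 0.93 ± 0.15 (adjusted p = 0.000862). Adgre1, the surface antigen used to count macrophages, read 11.21, 10.89, 10.60, 10.89 and 10.85 in HFD_CR and 9.98 to 10.92 in LFD. These ranges overlapped and the difference of 0.32 ± 0.14 did not pass the test (adjusted p = 0.198), while HFD_CR was lower than HFD (-0.99, adjusted p = 0.000103). Of 22 lysosome genes 8 were higher and none lower, led by the protease Ctsk (1.03 ± 0.17, adjusted p = 0.000982) and the lipase Lipa (0.63 ± 0.11, adjusted p = 0.00157). Leaving out HFD_CR mouse 2 added 1 lower macrophage gene. Of 14 resident macrophage genes 3 were higher, among them the scavenger receptor Stab1 (0.42 ± 0.09, adjusted p = 0.0076). This count fell to 1 without HFD_CR mouse 3 or 4 or LFD mouse 4, and 1 gene was lower without HFD_CR mouse 2 or LFD mouse 6. With the thermogenic covariate the higher genes were 2 general macrophage markers (median 0.04), 3 lysosome genes and no resident macrophage gene. Without LFD mice 3 and 6 they were 3 (median 0.09), 5 and 2.

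**Figure D4:**
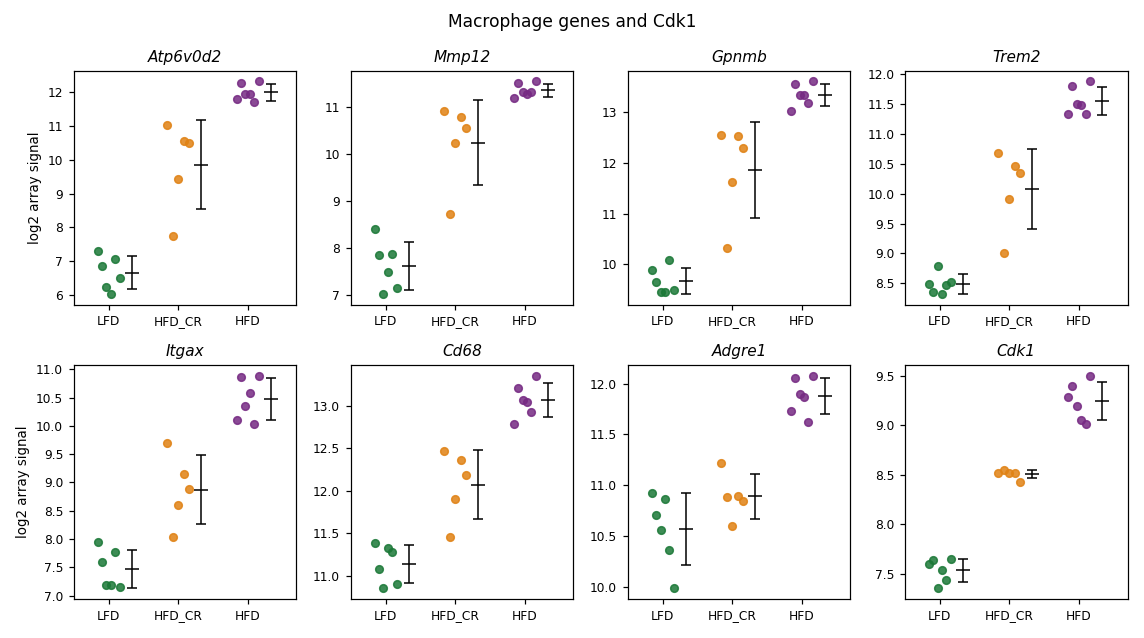
log2 array signal (vertical axis) of 7 macrophage genes and the cell cycle kinase gene Cdk1 on each array of LFD, HFD_CR and HFD; points are mice, the line and bar beside them the mean and SD. HFD_CR lies between LFD and HFD for the lipid-associated genes, with mouse 2 lowest (7.75 for Atp6v0d2), whereas the HFD_CR and LFD ranges of Adgre1 overlap.

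Of 30 cytokine and chemokine genes, 6 were higher and 1 was lower, Cxcl9 (-0.36); the higher genes were 3 without HFD_CR mouse 1 or 4, and 2 with the thermogenic covariate, where Cxcl9 was not called. Ccl11 (eotaxin), an eosinophil attractant made by stromal cells, was higher by 0.66 ± 0.09 (adjusted p = 0.000108), with 11.55 to 11.79 in HFD_CR above the LFD range of 10.67 to 11.22. Ccl2, the main monocyte attractant, read 10.53, 9.81, 9.24, 9.60 and 9.54 in HFD_CR and 8.45 to 9.66 in LFD. Its groups overlapped, and the difference of 0.72 ± 0.21 (adjusted p = 0.0406) lost its call in 15 of 24 alternatives, among them leaving out HFD_CR mouse 1, 2, 4 or 5 or LFD mouse 3, 4, 5 or 6 (adjusted p of up to 0.113). Against HFD it was lower (-1.86, adjusted p = 1.36e-05).

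The interferon list was lower for 6 of 21 genes, among them Iigp1, an immunity-related GTPase (-0.51 ± 0.12, adjusted p = 0.0097), and Stat2, which carries the type I interferon signal (-0.38 ± 0.10, adjusted p = 0.0157), and higher for Ifit2 (0.27). The lower genes were 3, 2, 3 and 3 without HFD_CR mouse 3, HFD_CR mouse 4, LFD mouse 1 or LFD mouse 3, and Ifit2 was not called without HFD_CR mouse 1, 2, 3 or 4 or LFD mouse 4, 5 or 6. Without LFD mice 3 and 6 there were 3 lower interferon genes, and with the thermogenic covariate none. Of 15 T cell genes the interleukin 7 receptor Il7r alone was higher (1.54 ± 0.29, adjusted p = 0.00239), with 8.72 on HFD_CR mouse 2 inside the LFD range of 7.67 to 9.07, and 1 gene was lower without LFD mouse 2. The call of Il7r made up 6.67% of the T cell list, near the 5.8% higher of all genes. Among 10 NK cell genes none was called, and 1 was lower without HFD_CR mouse 4 or LFD mouse 6. Of 15 B and plasma cell genes, Sdc1 (0.32) was higher and Cr2 (-0.65) lower, with a list median of -0.46. The lower genes were 6 without LFD mouse 6, 5 without LFD mice 3 and 6, 2 without HFD_CR mouse 3 and none without HFD_CR mouse 1, 4 or 5 or LFD mouse 1 or 5. Sdc1 was not called without HFD_CR mouse 1, 3, 4 or 5 or LFD mouse 3, 4, 5 or 6.

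Extracellular matrix genes were higher for 12 of 34 and lower for none, with a median of 0.19 beside an HFD minus LFD median of 0.66. Tnc (tenascin C), a matrix protein of remodelling tissue, read 9.058, 8.998, 8.778, 8.831 and 8.870 in HFD_CR and 7.44 to 8.44 in LFD, a difference of 0.78 ± 0.13 (adjusted p = 0.00113). Lum (lumican), a collagen-binding proteoglycan, was higher by 0.68 ± 0.13 (adjusted p = 0.00228) and lower than in HFD (-1.31, adjusted p = 6.47e-06). The collagen crosslinker Lox was higher by 0.53 ± 0.10 (adjusted p = 0.00185). Without LFD mouse 3, 2 matrix genes were lower and 12 higher, and with the thermogenic covariate 4 were higher. Of 19 progenitor and fibroblast genes 4 were higher, including Pdgfra, which marks adipose stromal cells (0.50 ± 0.10, adjusted p = 0.00449), and 2 were lower, Dlk1 (-0.30, with both group means below every array median) and Ebf2 (-0.29). With the thermogenic covariate, or without LFD mice 3 and 6, 1 was lower.

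Of 27 cell cycle genes, Cdk1 alone was higher, by 0.97 ± 0.08 (adjusted p = 3.54e-06). That was 3.7% of the list, under the 5.8% higher of all genes. The kinase gene read 8.52, 8.54, 8.52, 8.52 and 8.43 in HFD_CR, 7.36 to 7.65 in LFD and 9.01 to 9.50 in HFD, 3 ranges that did not touch. The list median was 0.11, against 0.90 for HFD minus LFD. A second cell cycle gene was higher without LFD mouse 1, and 1 was lower without LFD mouse 2.

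Clock genes separated HFD_CR from both ad libitum groups. Of 7 activator arm genes, 4 were lower and none higher than in LFD, and of 13 output and Per arm genes 9 were higher and none lower, with medians of -0.23 and 0.68. The corresponding HFD minus LFD medians were -0.18 and -0.06. The output list mean was 0.32 to 0.94 in HFD_CR, -0.17 to 0.15 in LFD and -0.20 to 0.00 in HFD. No array of an ad libitum group reached the HFD_CR range.

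Arntl, the activator Bmal1, read 8.43, 8.30, 7.52, 8.20 and 7.65 in HFD_CR, 9.45 to 9.86 in LFD (median 9.58) and 9.19 to 9.50 in HFD. All 5 HFD_CR values lay below the other 12, and the differences were -1.58 ± 0.13 from LFD (adjusted p = 3.87e-06) and -1.31 from HFD (adjusted p = 8.28e-06). Its partner genes, the paralogs Npas2 and Clock, were lower than in LFD, with differences of -0.97 ± 0.13 (adjusted p = 0.000107) and -0.21 ± 0.05 (adjusted p = 0.0108). Nfil3, a repressor of D-box genes, was lower (-0.81 ± 0.13, adjusted p = 0.000567). Dbp, an activator of D-box genes, moved the other way. It read 9.62, 10.07, 10.82, 10.10 and 10.42 in HFD_CR, 8.53 to 9.13 in LFD (median 8.65) and 8.66 to 8.88 in HFD. Its difference was 1.48 ± 0.15 from LFD (adjusted p = 1.35e-05) and 1.46 from HFD (adjusted p = 8.37e-06).

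Nr1d2 (Rev-erb beta), a repressor of Arntl, read 9.79, 9.95, 10.31, 10.08 and 10.12 in HFD_CR and 8.66 to 9.24 in LFD, a difference of 1.14 ± 0.10 (adjusted p = 4.9e-06). Ciart, a repressor of the Clock and Bmal1 pair, read 6.95, 7.46, 8.24, 7.42 and 8.31 in HFD_CR and 6.58 to 7.17 in LFD. HFD_CR mouse 1 fell in the LFD range, and the difference was 0.81 ± 0.19 (adjusted p = 0.0101). Wee1, a clock-driven kinase of the cell cycle, was higher by 0.77 ± 0.17 (adjusted p = 0.00808). Across these genes HFD_CR mice 3 and 5 had the lowest Arntl and the highest Dbp and Ciart signals.

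The promoters of clock genes hold known elements, shown here from the RefSeq promoter table for build GRCm38.p6 to place them beside the values. Promoters were found for 16990 of the 22180 genes, and windows run from 250 bases before to 50 after a start site. The E-box CACGTG, read by Bmal1 with Clock or Npas2, was found in the windows of 4 of 11 clock output genes with a promoter, Bhlhe41, Ciart, Per1 and Tef, beside 9.19% of all genes. It was also found for 3 of 14 cholesterol and 4 of 20 lipogenic genes with a promoter. The ROR element TAGGTCA, read by Rev-erb proteins, was found on either strand for 2 of 7 activator arm genes, Arntl and Nfil3, beside 2.72% of all genes. The D-box TTATGTAA was found for 1 of the 11 output genes, Per3, beside 1.01% of all. Below, capitals mark the E-boxes of Ciart, 116, 58 and 44 bases before its start site (minus strand, chr3:95882229-95882478), and the ROR element of Arntl, 30 bases after the start site of the second of its 2 windows (plus strand, chr7:113207531-113207557). In Nfil3 (minus strand, chr13:52981040-52981289) they mark the element in reverse, 12 bases before the start site. Elements were matched by letters alone, the genes shown were chosen after their values were known, and a match is a description of the window.
Ciart: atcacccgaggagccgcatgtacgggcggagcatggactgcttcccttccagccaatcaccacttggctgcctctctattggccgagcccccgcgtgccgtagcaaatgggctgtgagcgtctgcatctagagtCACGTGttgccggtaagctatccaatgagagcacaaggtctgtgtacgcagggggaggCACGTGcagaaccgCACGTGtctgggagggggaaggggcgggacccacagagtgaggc
Arntl: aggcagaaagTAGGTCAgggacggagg
Nfil3: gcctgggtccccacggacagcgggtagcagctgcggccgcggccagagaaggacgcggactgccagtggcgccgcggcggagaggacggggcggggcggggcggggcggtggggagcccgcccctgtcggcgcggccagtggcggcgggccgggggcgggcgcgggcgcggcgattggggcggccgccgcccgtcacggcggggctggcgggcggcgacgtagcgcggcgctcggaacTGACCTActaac

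Cholesterol biosynthesis also set HFD_CR apart from both other groups. Of 18 genes, 13 were lower than in LFD and none higher, with a median of -0.44. Against HFD, 13 were lower and 1 was higher, with a median of -0.37. Of all 22180 genes, 2508 were lower and 1705 higher than in HFD. Between HFD and LFD the median was -0.05. The list mean relative to the median array was -0.41 to -0.26 in HFD_CR, -0.14 to 0.14 in HFD, and 0.13 to 0.30 in LFD apart from mouse 2 at -0.27. That LFD array, the one with the most muscle signal, was inside the HFD_CR range. LFD mouse 3, with muscle and gland signal, had the highest list mean, 0.30. Without LFD mouse 2 and the other 3 arrays with muscle or gland signal, 15 genes were lower, and 11 were without LFD mice 3 and 6. The thermogenic covariate left 4 lower, with a median of -0.33.

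Cyp51, the lanosterol demethylase, read 8.26, 7.96, 8.01, 7.79 and 7.77 in HFD_CR, 8.39 to 9.64 in LFD (median 9.32) and 8.34 to 9.27 in HFD. The HFD_CR values were the lowest of the study, with differences of -1.28 ± 0.19 from LFD (adjusted p = 0.000358) and -0.95 from HFD (adjusted p = 0.00153). Pmvk, the phosphomevalonate kinase, read 8.40, 8.29, 8.18, 8.29 and 8.41 in HFD_CR and 9.002 to 9.71 in LFD, a difference of -1.11 ± 0.10 (adjusted p = 5.6e-06). Sqle, the squalene epoxidase, was lower (-0.97 ± 0.12, adjusted p = 9.45e-05) and so was Fdps, which makes farnesyl diphosphate (-0.71 ± 0.13, adjusted p = 0.00226). Fdps overlapped between the groups because LFD mouse 2 read 9.76, inside the HFD_CR range of 9.65 to 10.00. The factor Srebf2 (Srebp2) was lower too (-0.30).

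All 14 cholesterol genes with a RefSeq promoter had a CCAAT box (CCAAT, either strand) in the window, beside 41.6% of all genes, and 15 of 20 lipogenic genes had one. Among clock genes with a promoter, 8 of 11 output genes and 5 of 7 activator arm genes had one too. NF-Y, the factor that reads this box, is known to act next to Srebp sites. The sterol regulatory element, searched as TCACNCCAC, was found for 1 of the 14 (Hmgcs1) and 1 of the 20 (Mlxipl), beside 1.43% of all genes. The upstream window of Cyp51 (GRCm38.p6, minus strand, chr5:4104698-4104947) is shown as the gene with the largest difference of the list, with its CCAAT box, 29 bases before the start site, in capitals.
Cyp51: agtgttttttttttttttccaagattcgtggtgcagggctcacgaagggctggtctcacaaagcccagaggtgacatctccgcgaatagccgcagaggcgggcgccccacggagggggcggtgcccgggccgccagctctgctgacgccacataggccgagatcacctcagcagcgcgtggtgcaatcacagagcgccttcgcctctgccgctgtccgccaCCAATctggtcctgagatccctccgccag

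**Figure D5:**
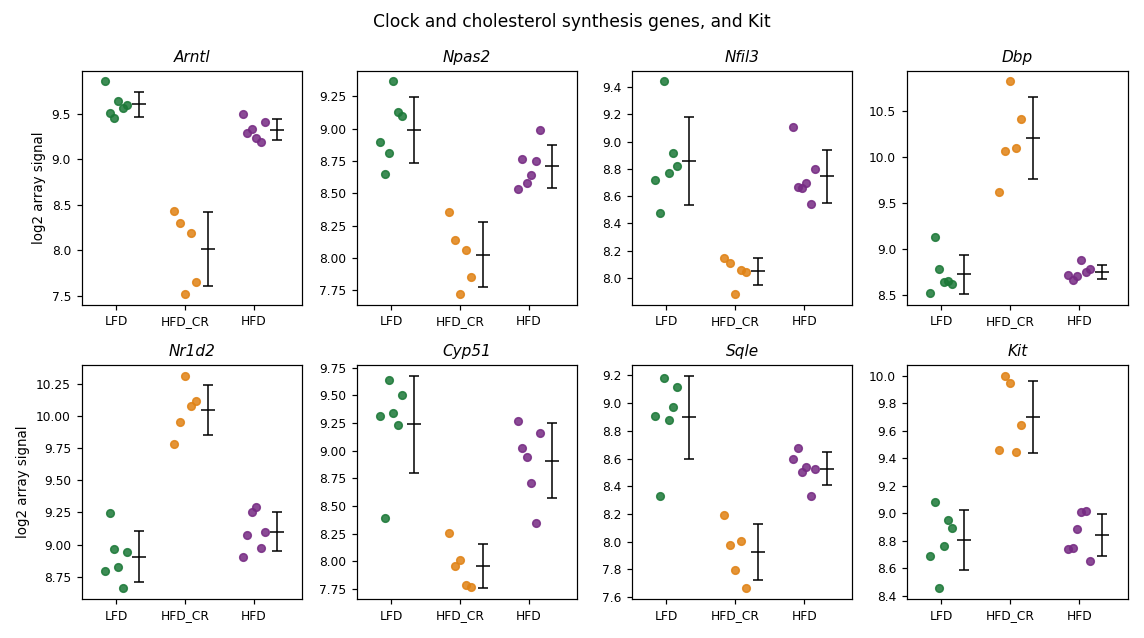
log2 array signal (vertical axis) of 5 clock genes, 2 cholesterol synthesis genes and Kit on each array of LFD, HFD_CR and HFD; points are mice, the line and bar beside them the mean and SD. In each panel the HFD_CR points lie outside the ranges of both ad libitum groups, for example 7.52 to 8.43 for Arntl against 9.45 to 9.86 in LFD.

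Glucocorticoid and fasting response genes were higher for 6 of 19, with a median of 0.32, and lower for 1, the glucocorticoid receptor Nr3c1 (-0.16). Tsc22d3 (GILZ), a direct glucocorticoid target, was higher than in LFD by 0.40 ± 0.09 (adjusted p = 0.0075) and than in HFD by 0.35 (adjusted p = 0.00873), with no overlap with LFD (9.31 to 9.88 against 9.05 to 9.20). Ddit4, an inhibitor of mTORC1, was higher by 0.92 ± 0.18 (adjusted p = 0.0029), while its difference from HFD was 0.09 (adjusted p = 0.819). Nr3c1 was not called when any of HFD_CR mice 1, 3, 4 and 5 or LFD mice 1, 2, 4 and 5 was left out, and the higher genes were 4 without HFD_CR mouse 3, 4 or 5 or LFD mouse 5 or 6.

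Kit and Ndrg1 also differed from both groups. Kit, the stem cell factor receptor of mast cells and some progenitors, read 9.46, 10.00, 9.95, 9.44 and 9.64 in HFD_CR, 8.45 to 9.08 in LFD and 8.65 to 9.02 in HFD. Its differences were 0.89 ± 0.12 from LFD (adjusted p = 0.000128) and 0.86 from HFD (adjusted p = 6.11e-05). No other of the 14 mast cell and granulocyte genes was called, so 7.14% of that list was called, beside 9.08% of all genes. Ndrg1, a stress-induced gene of the hypoxia list, was higher by 0.60 ± 0.10 than in LFD (adjusted p = 0.000816) and by 0.84 than in HFD (adjusted p = 1.7e-05).

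Stress-related lists changed in both directions. Hmox1, the heme-degrading enzyme, was higher by 0.74 ± 0.11 (adjusted p = 0.000277) and Gsta4, which conjugates lipid aldehydes, lower (-0.57 ± 0.14, adjusted p = 0.0135), within 4 higher and 2 lower of 24 antioxidant genes. Without HFD_CR mouse 1 these were 2 and 1, and without HFD_CR mouse 4 they were 2 and 2. They were 1 and 0 with the thermogenic covariate, and without LFD mice 3 and 6 they were 3 and 0. Without LFD mice 3 and 6 the difference in Gsta4 was -0.44 (adjusted p = 0.0796). Chac1, a glutathione-degrading target of the amino acid response, was higher by 0.70 ± 0.08 (adjusted p = 2.09e-05). Asns, the asparagine synthetase of the same response, was lower (-0.34 ± 0.07, adjusted p = 0.00472). The immediate early factor Atf3 was higher by 0.87 ± 0.18 (adjusted p = 0.00541), with 8.69 on HFD_CR mouse 2 and 9.02 to 9.98 on the other HFD_CR arrays, against 8.50 to 8.59 in LFD.

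Genes of plasma proteins were among the largest falls. Of 21 complement and acute phase genes 6 were lower and 3 higher (5 and 1 with the thermogenic covariate). Pon1, the paraoxonase carried by high-density lipoprotein, read 6.65, 7.61, 6.97, 7.31 and 7.46 in HFD_CR, 8.85 to 10.52 in LFD (median 9.85) and 6.07 to 7.25 in HFD. HFD_CR and LFD did not overlap, and the difference was -2.52 ± 0.27 (adjusted p = 2.09e-05), a 5.74-fold lower signal. Serpina3b, a serine protease inhibitor, read 6.99, 8.06, 7.31, 5.80 and 6.11 in HFD_CR and 8.92 to 10.47 in LFD, a difference of -2.81 ± 0.36 (adjusted p = 0.000103), or -2.33 with signals below the array median raised to it. Neither differed detectably from HFD (0.46, adjusted p = 0.291, and 0.18, adjusted p = 0.81).

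Orm3, an orosomucoid, and Alb, albumin, lay between the ad libitum groups. Orm3 read 9.04, 9.81, 9.32, 8.47 and 8.64 in HFD_CR, 10.23 to 10.88 in LFD and 6.65 to 7.68 in HFD. It was lower than in LFD (-1.41 ± 0.21, adjusted p = 0.000419) and higher than in HFD by 1.91 (adjusted p = 1.18e-05). Alb was lower than in LFD (-1.17 ± 0.21, adjusted p = 0.00134) and higher than in HFD by 1.19 (adjusted p = 0.000456). Cyp2f2, a xenobiotic-metabolizing cytochrome, was lower (-2.15 ± 0.26, adjusted p = 5.09e-05), with -1.36 when its probe sets were averaged. Asb12 was lower (-2.01 ± 0.15, adjusted p = 2.69e-06), with -1.09 for averaged probe sets and -1.70 with signals below the array median raised to it.

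The other large rises included imprinted genes and genes of secreted proteins. Peg3, an imprinted zinc finger gene, read 11.16, 11.31, 11.28, 11.71 and 11.52 in HFD_CR, 8.51 to 10.24 in LFD (median 9.44) and 10.59 to 11.04 in HFD. Every HFD_CR value was above every other array, with differences of 2.01 ± 0.21 from LFD (adjusted p = 1.49e-05) and 0.54 from HFD, which missed the threshold (adjusted p = 0.083). Mest, an imprinted gene whose level follows fat mass expansion, read 13.00, 12.89, 12.92, 13.06 and 12.85 in HFD_CR and 10.21 to 12.02 in LFD, a difference of 1.49 ± 0.22 (adjusted p = 0.000285). Its difference from HFD was -0.11 (adjusted p = 0.801). The Wnt inhibitor Sfrp5 was higher by 1.95 ± 0.48 (adjusted p = 0.0149), with 7.19 on LFD mouse 3 and 9.68 to 11.19 on the other LFD arrays, and by 1.17 without LFD mice 3 and 6 (adjusted p = 0.000211). With only the HFD_CR and LFD arrays in the fit its adjusted p was 0.0611. The secreted matrix protein gene Crtac1 was higher by 1.68 ± 0.14 (adjusted p = 3.87e-06), with 9.60 to 10.09 in HFD_CR above 7.54 to 8.60 in LFD. Gpr50, an orphan relative of the melatonin receptors, was higher by 2.27 ± 0.21 (adjusted p = 6.78e-06) and lower than in HFD (-1.33, adjusted p = 0.000242).

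Few markers of vessels and lining cells were called. Of 18 endothelial genes Nos3, the endothelial nitric oxide synthase, alone was lower (-0.37 ± 0.06, adjusted p = 0.00042), and 1 was higher without LFD mouse 2. Of 12 smooth muscle genes 2 were higher and none lower. The higher genes were 1 without HFD_CR mouse 2, 4 or 5 or LFD mouse 1, 3, 4, 5 or 6, and 1 with the thermogenic covariate. Synpo2, an actin-binding gene of this list, read 11.11, 10.97, 11.11, 11.13 and 11.14 in HFD_CR and 8.93 to 10.41 in LFD, a difference of 1.42 ± 0.17 (adjusted p = 7.26e-05). Of 12 mesothelial genes the tight junction gene Cldn15 was higher (0.75 ± 0.10, adjusted p = 0.000161), with 4 higher without HFD_CR mouse 5 and 2 without LFD mice 3 and 6. The shares called were 5.56% of the endothelial, 16.7% of the smooth muscle and 8.33% of the mesothelial genes, beside 9.08% of all genes.

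Of 101 called genes examined under 24 alternatives (23 for Ciart, which the filter on low signals removed), 60 kept their call in all of them. With the mean of the thermogenic list as a covariate 41 lost it, 34 of them in this alternative alone. Of the 41, those named above were Sfrp5, Il7r, Ucp1, Cidea, Slc2a4, Pdha1, Mccc1, Cs, Ndufa10, Gpam, Fdps, Lep, Aqp7, Pik3r1, Irs2, Stab1, Ccl2, Iigp1, Stat2, Tnc, Ciart, Atf3, Asns, Gsta4 and Lox, with adjusted p between 0.053 and 0.884. Ucp1, Ccl2, Lep, Sfrp5, Aqp7 and Gsta4 also lost their calls in other alternatives. The sizes moved unequally. Ucp1 and Cidea are themselves in the list whose mean is the covariate. Their smaller differences with it (-0.15 and -0.39) and their lost calls were therefore built into the fit. The difference of Sfrp5 with the covariate was 0.70, smaller than without it. Those of Stab1 (0.45), Ciart (0.91) and Atf3 (0.88) were not smaller than without it. Thermogenic signal and group moved together, since the 3 highest arrays were all LFD, and the part of that signal in the other differences was not tested apart from this covariate. Acly, Acaca, Elovl6, Fasn, Atp6v0d2, Trem2, Arntl, Dbp, Cyp51, Pon1 and Peg3 kept their calls with it.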

How the data were processed

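Periprostatic fat RNA of 17 mice was hybridised to 1 array each. The deposited log2 values are, per the submitters' processing notes, RMA output, with limma and R 3.5.0 also named and no roles given. RMA pulls array distributions together, so a shift shared by most genes cannot be seen. Per the labels' protocols only RNA with an integrity number above 7 was used. Of 33793 probe sets, 23521 had 1 gene symbol in the platform annotation, 1814 several and 8458 none. Symbols were updated by gene identifier for 23328. The probe set with the highest mean stood for each of 22180 genes. limma 3.58.1 in R 4.3.3 (lmFit, a mean per group over all 17 arrays, eBayes) gave 14 residual and 3.63 prior degrees of freedom. Genes were called at a Benjamini-Hochberg adjusted p under 0.05. The fit was also run on simulated arrays with known changes and independent normal noise. Those held no other-tissue signal and no outlying arrays, so they cannot show how such arrays bear on the calls. Mice are the replicates, and their number limits the precision. Of 867 genes in 45 lists, 783 were measured.

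Named genes were the 12 largest rises and 12 largest falls after each signal below its array median was raised to that median, up to 4 called members per list (2 where none was called) and 12 fixed genes. The text uses a part of these and names others where a count is small. The comparison, lists and named genes were chosen with earlier results of these data known. Alternatives were another normalization, probe set averaging, variance model, array weights, signal filter, covariates, replicate block and arrays left out.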

Additional observations from a re-analysis of the deposited data

Results flagged for a closer look

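Single arrays lay far from the rest of their group in 19 of 242 groups of values examined, by Dixon's test; chance alone flags about 1 group in 20. LFD mouse 3 was the low array for Mest (10.21), Nnat (11.61), Aqp7 (12.39), Irs2 (9.59) and the adipocyte identity mean (12.73), and the high array for the gland (8.26) and urothelium (7.80) means. LFD mouse 2 was low for Cyp51 (8.39), Sqle (8.33), Fdps (9.76) and the means of the cholesterol (9.30) and clock activator (9.06) lists. HFD_CR mouse 2 was low for Foxo3 (8.08) and Synpo2 (10.97) and high for the skeletal muscle mean (8.86). HFD_CR mouse 1 was high for Tnp2 (9.92), a sperm chromatin gene, for the germ cell mean (9.21) and for the cholesterol mean (9.31). HFD_CR mouse 5 was low for Cdk1 (8.43), in a group spanning only 8.43 to 8.54.

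Among the 10272 probe sets with no gene symbol or several, left out of the gene comparison, HFD_CR exceeded LFD for 101 and fell below it for 85 at an adjusted p under 0.05 in a limma fit of the same kind.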

How the results depend on the processing

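The counts of 1287 higher and 728 lower genes became 429 and 227 with the thermogenic covariate, 615 and 352 at an adjusted p under 0.01, and 206 and 98 with a difference of at least 1.5-fold required; under the other alternatives they stayed within 1.5 times. Leaving out 1 HFD_CR or LFD array at a time gave 977 to 1440 higher and 521 to 915 lower. Adipoq (-0.038) and Pparg (0.036) turned sign with the thermogenic covariate, and Scd1 (0.0059) with quantile normalization applied again; none of the 3 was called in either setting, and the cause was not tested. With mouse number as a replicate block, 1144 genes were higher and 629 lower, and 1 of the named genes, Ucp1, lost its call. Whether the numbers pair mice across groups could not be decided from so few pairs. Correlations of the HFD_CR and LFD deviations ran from -0.01 to 0.30 over 5 pairs, and 2 of 5 HFD_CR arrays matched their own number best. Between HFD and LFD, mouse 3 gave 0.41. Signal over background was not given apart from the deposited values, so weak genes could not be set against it.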

Other observations

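Glycogen genes were lower in HFD_CR, a list chosen after the values were seen and given with no test of its own. Of 20 measured, 9 were lower than in LFD and none higher, with a median of -0.32. Of all genes tested, 3.28% were lower and 5.8% higher. Ppp1r3b, which brings protein phosphatase to glycogen, differed by -1.29 (adjusted p = 0.00689), the glycogen phosphorylase Pygl by -0.76 (adjusted p = 0.000156), the glycogen synthase Gys2 by -0.75 (adjusted p = 0.00337) and the branching enzyme Gbe1 by -0.72 (adjusted p = 9.45e-05), all by limma over all genes. Against HFD these called genes went both ways. Gys2 (-0.95, adjusted p = 0.000164) and Ppp1r3d (-0.29, adjusted p = 0.0293) were lower than in HFD. Gys1 (0.40), Pygb (0.44), Pygl (0.37) and Phkg1 (0.36) were higher, with adjusted p of 0.0154 or less. Gbe1, Ugp2 and Ppp1r3b did not pass. The list median of HFD_CR minus HFD was 0.16. With the thermogenic covariate the difference of Gys2 from LFD was -0.51 (adjusted p = 0.139).

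Of 19 imprinted genes, listed after the values were seen, 6 were higher and 1 lower, beside 5.8% higher and 3.28% lower of all genes. Besides Peg3 and Mest, the higher genes included Zim1, Nnat and Grb10. Zim1, the neighbour of Peg3, was higher by 1.25 (adjusted p = 9.44e-06), with an LFD mean of 6.76, below every array median. Nnat was higher by 0.68 (adjusted p = 0.0103), and also higher than in HFD. With the thermogenic covariate its difference from LFD was 0.43 (adjusted p = 0.262). Grb10, an inhibitor of insulin signalling, was higher by 0.31 (adjusted p = 0.0101). Dlk1 was the lower gene (-0.30, adjusted p = 0.00126), with both group means below every array median. Of 36 Hox genes, which mark the position of a fat depot, 6 were lower, led by Hoxc8 (-0.48, adjusted p = 0.00989). Hoxa13 alone was higher (0.42, adjusted p = 0.0111), a share under the 5.8% of all genes. These genes too were listed after the values were seen. The acute phase gene Saa3 was lower than in LFD by -1.01, also named after its value was seen.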
